A study of Mus musculus with 9 samples.

Results

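The genes of the mitochondrial carrier family whose symbols begin with Slc25a were described in mRNA libraries of splenic type 2 dendritic cells. All symbols with that prefix were taken from the deposited gene counts, which gave 47 of the 24054 genes listed, and 42 of them were tested for differences between groups. The 9 libraries came from spleens of C57BL/6 mice that carried Clec9a-Cre and Rosa-tdTomato on both alleles in every group, so that the fluorescent protein TOMATO (TOM) marked cells with a history of Cre driven by Clec9a, a gene used early in the conventional dendritic cell lineage. Live, single, autofluorescence-negative cells positive for MHCII, CD11c and CD11b were sorted by TOM. At postnatal day 8 (young) both populations were sorted, TOM+ cDC2 into 3 libraries and TOM- DC2 into another 3. The last 3 libraries were of TOM+ cDC2 from adults, which were 9 weeks old for replicate 1 and 8 weeks old for replicates 2 and 3. For young mice, spleens had been pooled ahead of the sort, no adult TOM- group was analysed here, and in bulk samples fewer cells of a type cannot be told apart from less RNA per cell.

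The inner mitochondrial membrane is closed to most metabolites, and members of the SLC25 family carry them across it, usually by exchanging a substrate of the matrix for one of the cytosol. ADP/ATP carriers and the phosphate carrier supply ATP synthase and export its product. Other members move carboxylates, amino acids, nucleotides, cofactors, glutathione, acylcarnitine or iron, a few sit in the peroxisome or the outer membrane, and several have no established substrate. Carriers are made in the cytosol and enter the inner membrane by way of the TOM complex of the outer membrane (a protein complex unrelated to the TOM label), small Tim chaperones and the TIM22 complex.

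Gene counts per library ranged from 12783252 to 22809401. All 13 cDC2 markers examined, among them Itgax, Sirpa, Cd209a and Zbtb46, were detected in every group. Of these, 9 were lower and 3 higher in young TOM+ cDC2 than in adult cells, against 19.5% and 21.0% of all genes tested. Among the lower ones, Esam was 4.62-fold, Clec4a4 2.81-fold and Cd209a 2.44-fold lower. The 3 higher ones were Clec10a (3.48-fold), Itgam (1.72-fold) and Sirpa (1.47-fold). Markers of monocytes and macrophages summed to 86.2 to 127.9 TPM (a share of the transcripts of a library, scaled by length) in young libraries and 56.8 to 63.2 TPM in adults. The 7 tested markers of this list differed in direction. In young TOM+ cDC2, Ccr2 and Spic were higher than in adults and Vcam1 was lower, against 21.0% and 19.5% of all genes. In young TOM- DC2, Spic and Mertk were higher, against 19.4% of all genes, and 0 were lower. Transcripts of red cell precursors were present in young spleens: the summed TPM of 12 erythroid markers was between 53.2 and 97.1 in young TOM+ cDC2, 1177, 120.5 and 52.9 in young TOM- DC2, where replicate 1 stood apart, and 1.39 to 13.6 in adults, where 7 of the 12 were at 0 in all libraries. The summed TPM of 6 markers of innate lymphoid cells type 3 was 24.1 to 32.5 in young TOM- DC2 and 2.96 to 4.96 in the other libraries. A list of 16 proliferation genes summed to 2517 to 2639 TPM in young TOM+ cDC2, 2313 to 2381 TPM in young TOM- DC2 and 1034 to 1239 TPM in adults. Without young TOM- replicate 1, 0 members passed in the comparison of the young groups, and 10 were higher and 7 lower in young TOM- DC2 than in adult TOM+ cDC2, where all libraries gave 10 and 6. The part of the cDC2 marker, monocyte, erythroid, lymphoid and proliferation differences in the carrier results was not tested.

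The family ranged over more than 3 orders of TPM, and a handful of members held most of it. Of the 47 members, 6 had a mean of at least 100 TPM over the 9 libraries, 20 lay between 10 and 100, 11 between 1 and 10 and 10 under 1. The 5 at the top were Slc25a5 (the ADP/ATP carrier ANT2; mean 943 TPM), Slc25a3 (the phosphate carrier; 381), Slc25a4 (the ADP/ATP carrier ANT1; 309), Slc25a11 (the 2-oxoglutarate carrier; 209) and Slc25a33 (a pyrimidine nucleotide carrier; 131). Together these 5 made up 69.6% to 72.7% of the family's TPM in every library. The plot of levels shows that the order of the leading members changed with age for Slc25a3 and Slc25a4, which overlapped in young libraries, and for Slc25a33.

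**Figure D1:**
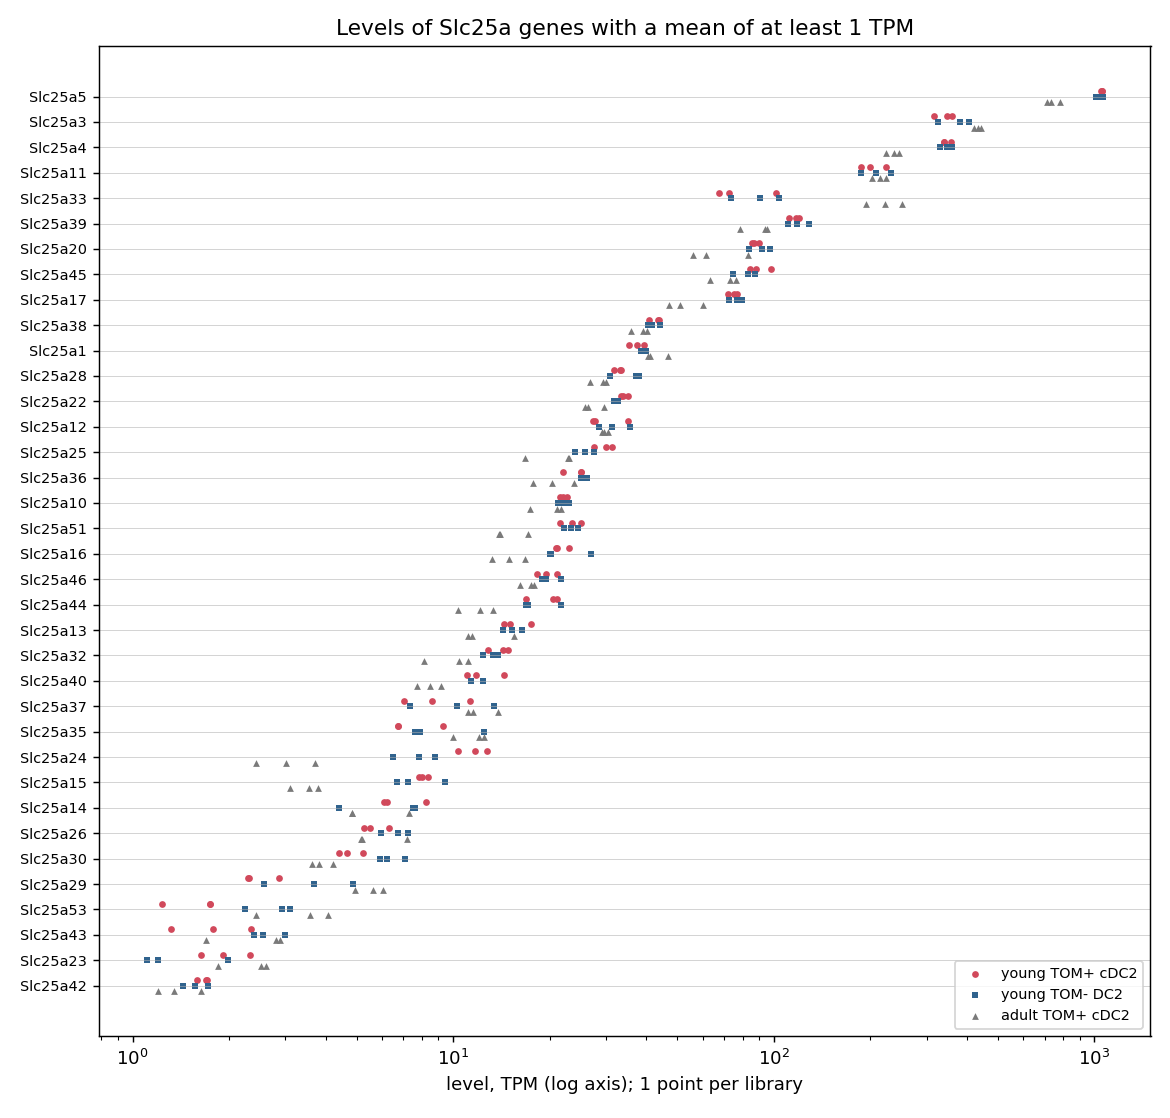
TPM of 36 of the 37 Slc25a members with a mean of at least 1 TPM, on a log axis, with 1 point per library (circles, young TOM+ cDC2; squares, young TOM- DC2; triangles, adult TOM+ cDC2). Slc25a5 lies above all others, and adult points stand apart from all young points for Slc25a24, Slc25a15 and Slc25a33.

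The 5 members not tested had a mean count under 1. Slc25a48 had 0 counts in all 9 libraries, and so did Slc25a54, a relative of the ATP-Mg/phosphate carriers. Slc25a31, the ADP/ATP carrier of the germline, and Slc25a21, the oxodicarboxylate carrier, had 2 counts in all, and Slc25a34 had 7. Among the tested members, Slc25a47, Slc25a27, Slc25a18, Slc25a2 and Slc25a41 stayed under 1 TPM in every library.

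Neighbouring genes of the family did not share a level. Slc25a54 (mm10 chr3:109080499-109116582) lies close to Slc25a24 (chr3:109123149-109168409), which had 63 to 439 counts per library. Slc25a43 (chrX:36743570-36777307), of unknown substrate, had a mean of 2.31 TPM beside Slc25a5 (chrX:36795597-36798808). Slc25a29 (chr12:108825878-108835876) had a mean of 3.91 TPM beside Slc25a47 (chr12:108849833-108856815) at 0.369 TPM.

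The first comparison asked whether carrier levels in young mice differed between cells with and without the TOM label. With edgeR's quasi-likelihood test on the counts and adjustment over all 14452 genes tested, 0 members were higher and 0 were lower in young TOM+ cDC2 at an adjusted p (padj) under 0.05, against 0.125% and 1.47% of all genes tested. With the further requirement of a log2 fold change (log2FC) beyond 1 the count was also 0, against 1.18% of all genes. At an unadjusted p under 0.05 there were 6 members (14.3%) and 9.38% of all genes. DESeq2 called 1 member, and so did edgeR with young libraries paired by replicate, which the main test did not do. The normalized counts of the groups did not overlap for 8 members (19%), against 16.6% of all genes, and the median log2FC was -0.01 over members and 0.00 over all genes. For 24 of the 37 members with a mean count of at least 20, the 95% interval of the log2FC lay within 0.5 of 0.

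The most abundant carriers lay close together in the young groups. Slc25a5 measured 1048, 1060 and 1055 TPM in young TOM+ cDC2 and 1026, 1062 and 1011 TPM in young TOM- DC2. The groups overlapped, and the log2FC was 0.05 (95% interval -0.13 to 0.23). For Slc25a4 the log2FC was 0.02 (95% interval -0.13 to 0.18), and for Slc25a3 it was -0.10 (95% interval -0.35 to 0.15).

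Slc25a24, which exchanges ATP-Mg for phosphate under control of calcium, came closest to the threshold. It measured 11.7, 12.8 and 10.4 TPM in young TOM+ cDC2 and 8.80, 7.81 and 6.49 TPM in young TOM- DC2. Every TOM+ library was above every TOM- library, but the test narrowly missed, with a log2FC of 0.62 (SE 0.14, edgeR padj = 0.0568). With a replicate block, which pairs the young libraries that carry the same number in their deposited names, the log2FC was 0.62 with an edgeR padj of 0.0198. The padj was 0.00876 with DESeq2 and 0.0327 with no filter on low counts, and in edgeR 0.0456 without adult TOM+ replicate 2 and 0.0421 without adult TOM+ replicate 3, so that this call depended on the analysis.

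The other members with an unadjusted p under 0.05 had lower values in TOM+ cDC2 and did not pass. Slc25a53, of unknown substrate, measured 1.75, 1.24 and 1.74 TPM in young TOM+ cDC2 and 3.10, 2.24 and 2.93 TPM in young TOM- DC2 (log2FC -0.73, SE 0.20, edgeR padj = 0.125). Slc25a29, a carrier of basic amino acids, had a log2FC of -0.53 (SE 0.23), and Slc25a30, a relative of the uncoupling protein UCP5, had -0.35 (SE 0.16). The last 2, Slc25a18 and Slc25a27, had at most 10 counts in any young library.

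The second comparison asked how TOM+ cDC2 of young mice differed from TOM+ cDC2 of adults. At padj under 0.05, 11 of the 42 members (26.2%) were higher in young cells and 9 (21.4%) were lower, against 21.0% and 19.5% of all genes tested, so that the family's shares were near the background. With the log2FC beyond 1 as well, 6 members (14.3%) remained, against 12.8% of all genes: Slc25a24 and Slc25a15 were higher in young cells, and Slc25a33, Slc25a29, Slc25a53 and Slc25a27 were lower. The groups did not overlap for 25 members (59.5%), against 51.1% of all genes, and the median log2FC was 0.07 over members and 0.05 over all genes. On the TPM scale, values of young cells sit higher: genes with a mean of at least 10 TPM had a median log2FC 0.13 above that from counts scaled by TMM (edgeR's trimmed mean of M-values). The split of calls with limma on log2(TPM + 1) was 15 higher and 7 lower, against 11 and 9.

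**Figure D2:**
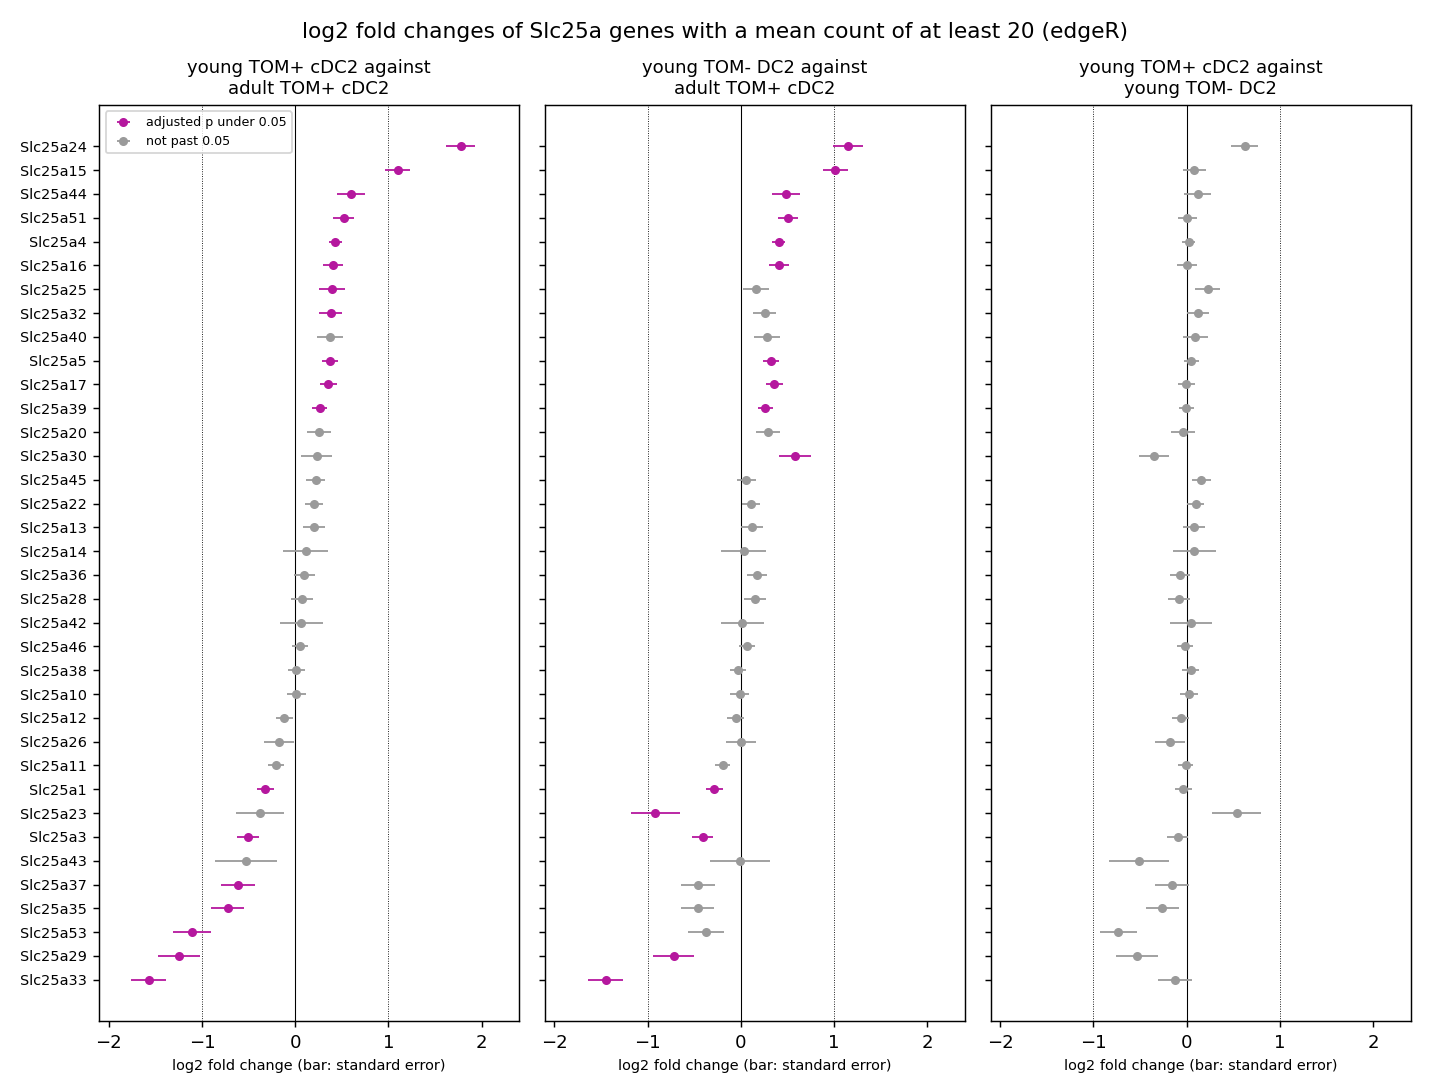
log2FC with its standard error for 36 of the 37 Slc25a members with a mean count of at least 20, in the 3 comparisons, with members in the same order in each panel and dotted lines at a log2FC of -1 and 1. Slc25a24 and Slc25a15 lie beyond 1 and Slc25a33 beyond -1 in both comparisons with adult cells, which share the adult libraries, and no member is coloured as past padj 0.05 in the comparison of the young groups.

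Among the carriers of adenine nucleotides and phosphate, 4 of the 7 tested members were higher in young TOM+ cDC2 and 1 was lower, against 21.0% and 19.5% of all genes. Slc25a24 measured 3.02, 2.43 and 3.72 TPM in adult cells, below all 6 young libraries. It was 3.42-fold higher in young TOM+ cDC2 (log2FC 1.77, SE 0.16, edgeR padj = 4.51e-06), which was the largest rise among the members tested. Slc25a25, a related ATP-Mg/phosphate carrier, was higher by a log2FC of 0.39 (SE 0.14, edgeR padj = 0.0405), from 27.6, 31.2 and 30 TPM against 23.1, 22.8 and 16.8 TPM. That call was lost without young TOM+ replicate 2 (padj 0.133) or 3 (0.107), young TOM- replicate 2 (0.0535) or 3 (0.0537), or adult replicate 3 (0.136). It was also lost with RLE size factors in place of TMM (0.0515), with RSEM expected counts (0.0606) and in a fit of these groups alone (0.0541). Counting each strand apart gave 8.54% more reads for Slc25a25, which overlaps another gene.

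Both ADP/ATP carriers were higher in young cells. Slc25a4 measured 356, 340 and 340 TPM in young TOM+ cDC2 and 236, 224 and 246 TPM in adult cells (log2FC 0.43, SE 0.07, edgeR padj = 0.000484). Slc25a5 measured 782, 712 and 734 TPM in adult cells (log2FC 0.37, SE 0.08, edgeR padj = 0.00368). For both genes every young library was above every adult library. STAR counted only 35.7% as many reads on Slc25a5 as RSEM, which divides reads that match several places, while the median over genes was 103%, so that the level of Slc25a5 rests on RSEM. The ratio of Slc25a5 to Slc25a4 in TPM was 3.06 ± 0.10 (SD, n = 3) in young TOM+ cDC2, 2.99 ± 0.19 in young TOM- DC2 and 3.16 ± 0.16 in adult cells, and these ranges overlapped.

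Slc25a3, which brings in phosphate for the ADP that the ADP/ATP carriers import, went the other way. It measured 316, 348 and 359 TPM in young TOM+ cDC2 and 420, 434 and 442 TPM in adult cells. All adult libraries were above all young ones, with a log2FC of -0.51 (SE 0.11, edgeR padj = 0.00382). The ratio of Slc25a3 to Slc25a4 in TPM was 0.990 ± 0.090 (SD, n = 3) in young TOM+ cDC2, 1.08 ± 0.15 in young TOM- DC2 and 1.84 ± 0.09 in adult cells. The ratio plots show no overlap between young and adult libraries for this pair. Slc25a23, another ATP-Mg/phosphate carrier, did not pass (log2FC -0.38, SE 0.26), and Slc25a41 had 9 counts over all libraries.

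**Figure D3:**
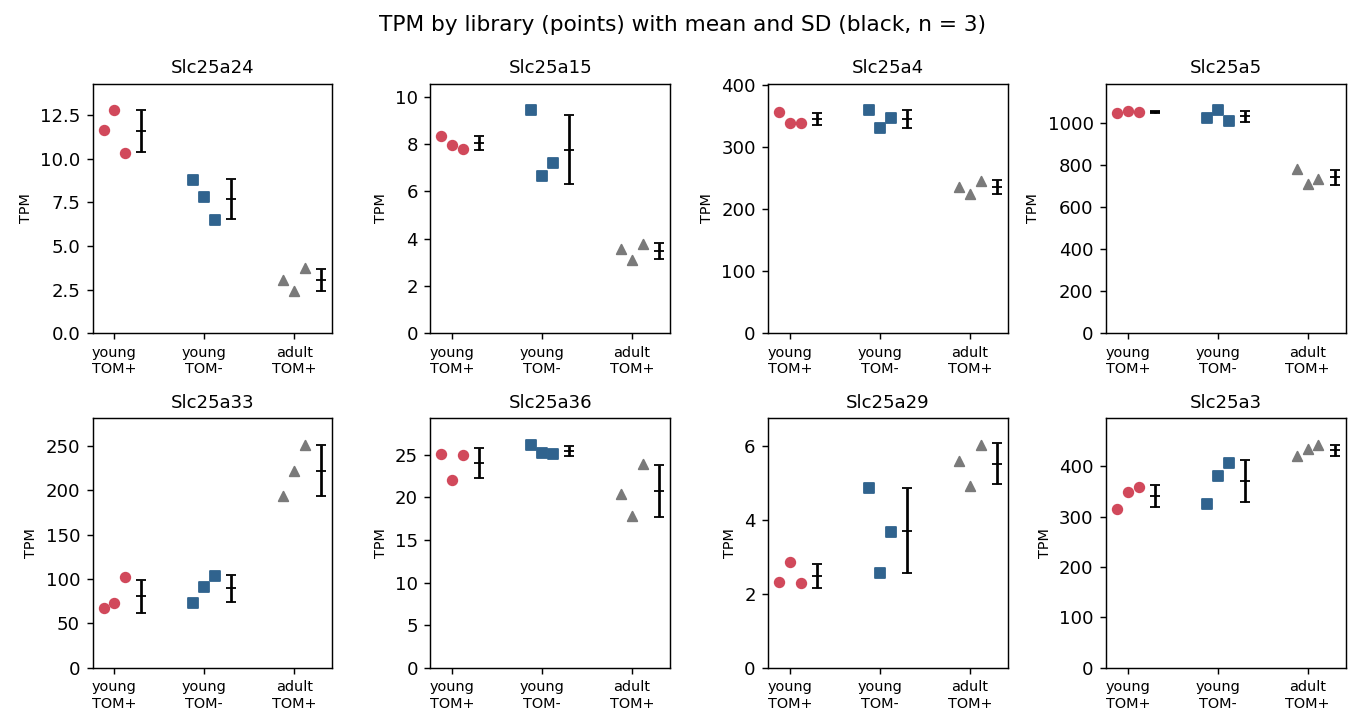
TPM of 8 Slc25a members in each library, from a base of 0, with the mean and SD of each group in black (n = 3). Slc25a24, Slc25a15, Slc25a4 and Slc25a5 are lower in adult cells, Slc25a33, Slc25a29 and Slc25a3 are higher there than in young TOM+ cDC2, and the adult and young TOM+ libraries of Slc25a36 overlap.

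Of the 9 carriers of cofactors and of nucleotides other than adenine, 4 were higher in young TOM+ cDC2, while Slc25a33 was lower, against 21.0% and 19.5% of all genes. Slc25a33 and Slc25a36 both carry pyrimidine nucleotides, which mitochondria use to make DNA and RNA, and only Slc25a33 passed the test. The 250 bases before the RefSeq start of each gene (GRCm38.p6, the assembly behind mm10) are shown because the pair shares a substrate and differed in its change with age. The Slc25a33 window is chr4:149774268-149774517 and the Slc25a36 window is chr9:97111042-97111291, both on the minus strand and written 5′ to 3′ toward the gene. Capitals mark CACGTG, a form of the E-box.
Slc25a33: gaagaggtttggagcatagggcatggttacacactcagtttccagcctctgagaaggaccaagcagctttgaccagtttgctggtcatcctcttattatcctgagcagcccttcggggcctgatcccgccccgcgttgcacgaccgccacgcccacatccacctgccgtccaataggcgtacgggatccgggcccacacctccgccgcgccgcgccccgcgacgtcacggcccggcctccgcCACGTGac
Slc25a36: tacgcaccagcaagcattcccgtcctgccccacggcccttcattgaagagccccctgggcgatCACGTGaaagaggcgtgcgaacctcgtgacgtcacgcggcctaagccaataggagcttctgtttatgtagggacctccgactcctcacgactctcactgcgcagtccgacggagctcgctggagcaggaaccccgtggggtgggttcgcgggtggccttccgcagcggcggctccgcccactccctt
CACGTG reads the same on both strands. Its first base lay 8 bases before the start in Slc25a33 and 187 bases before it in Slc25a36, and 64.4% of the bases were G or C in either window.

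Slc25a33 measured 67.6, 72.6 and 102 TPM in young TOM+ cDC2 and 193, 222 and 251 TPM in adult cells. The lowest adult library was well above the highest young one. It was 2.97-fold lower in young TOM+ cDC2 (log2FC -1.57, SE 0.18, edgeR padj = 3.46e-05). Slc25a36 measured 25.1, 22.04 and 25.01 TPM in young TOM+ cDC2 and 20.4, 17.8 and 23.9 TPM in adult cells. These groups overlapped, with a log2FC of 0.10 (95% interval -0.14 to 0.34), and STAR counted 60.0% as many reads on it as RSEM. The TPM ratio of Slc25a33 to Slc25a36 was 3.35 ± 0.69 (SD, n = 3) in young TOM+ cDC2, 3.52 ± 0.67 in young TOM- DC2 and 10.8 ± 1.5 in adult cells.

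Other cofactor carriers changed less. Slc25a51, which imports NAD, measured 23.4, 25.1 and 21.6 TPM in young TOM+ cDC2 and 17.2, 13.9 and 13.97 TPM in adult cells (log2FC 0.52, SE 0.11, edgeR padj = 0.00227). The groups did not overlap. Slc25a16, tied to coenzyme A, was higher by a log2FC of 0.41 (SE 0.11), and the peroxisomal carrier Slc25a17 by 0.36 (SE 0.09). Slc25a32, a folate or FAD carrier, was higher by 0.38 (SE 0.12, edgeR padj = 0.0259), a call lost without young TOM+ replicate 1 (padj 0.0538) or 3 (0.104) or adult replicate 2 (0.09). The coenzyme A carrier Slc25a42 and the S-adenosylmethionine carrier Slc25a26 did not pass.

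Of the 12 carriers of amino acids, glutathione and carnitine, 3 were higher and 1 was lower in young TOM+ cDC2, against 21.0% and 19.5% of all genes. Slc25a15, which carries ornithine, measured 8.36, 7.97 and 7.81 TPM in young TOM+ cDC2 and 3.55, 3.09 and 3.79 TPM in adult cells. It was 2.14-fold higher in young cells without overlap (log2FC 1.10, SE 0.13, edgeR padj = 4.79e-05). Slc25a29, which carries arginine and lysine as well as ornithine, measured 2.31, 2.87 and 2.30 TPM in young TOM+ cDC2 and 5.61, 4.93 and 6.03 TPM in adult cells. It was 2.38-fold lower in young cells (log2FC -1.25, SE 0.22, edgeR padj = 0.000818), again without overlap. The TPM ratio of Slc25a15 to Slc25a29 lay on either side of 1, at 3.26 ± 0.44 (SD, n = 3) in young TOM+ cDC2, 2.16 ± 0.37 in young TOM- DC2 and 0.629 ± 0.003 in adult cells.

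**Figure D4:**
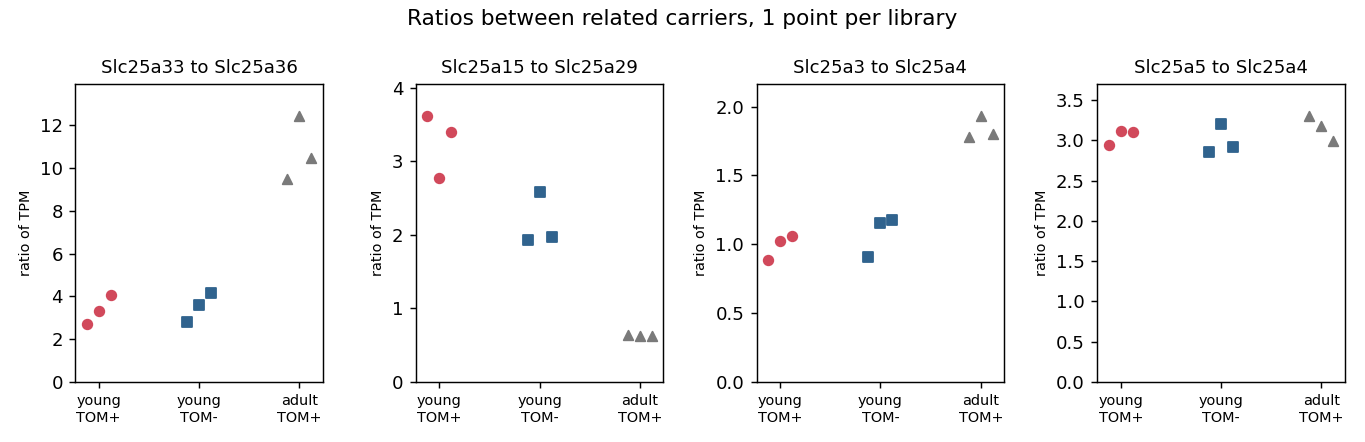
Ratio of the TPM of 2 related carriers in each library, from a base of 0, for the 3 groups. The ratios of Slc25a33 to Slc25a36 and of Slc25a3 to Slc25a4 are higher in every adult library, that of Slc25a15 to Slc25a29 is higher in every young library, and that of Slc25a5 to Slc25a4 overlaps between all groups.

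Slc25a44, a carrier of branched-chain amino acids, was also higher in young cells, with 16.9, 20.5 and 21.1 TPM against 10.4, 12.1 and 13.3 TPM in adult cells (log2FC 0.60, SE 0.15, edgeR padj = 0.00637). Slc25a39, the main glutathione carrier, was higher by a log2FC of 0.26 (SE 0.08, edgeR padj = 0.0259), from 117, 112 and 120 TPM against 78.6, 93.9 and 95 TPM. The Slc25a39 call was lost without young TOM+ replicate 2 (padj 0.0576) or 3 (0.137), young TOM- replicate 3 (0.0519) or adult replicate 1 (0.105), and with RSEM expected counts (0.0573). Slc25a40, the second glutathione carrier, had a log2FC of 0.37 (SE 0.14, edgeR padj = 0.0502) and did not pass. The aspartate/glutamate carriers of the malate-aspartate shuttle, Slc25a12 (Aralar; log2FC -0.12, SE 0.09) and Slc25a13 (citrin; 0.20, SE 0.12), did not pass either, nor did the glutamate carrier Slc25a22 (0.20, SE 0.09). Slc25a18 and Slc25a2, at a total of 30 and 11 counts, were too low to compare. Slc25a20, which exchanges acylcarnitine for carnitine in fatty acid oxidation, measured 86.5, 85.6 and 89.7 TPM in young TOM+ cDC2 and 56.1, 61.6 and 83.0 TPM in adult cells, and did not pass by counts (log2FC 0.25, SE 0.13, edgeR padj = 0.146).

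The carriers of iron and glycine, which feed heme synthesis, did not pass as higher in young cells. Slc25a37 (mitoferrin 1), the iron importer used most by red cell precursors, measured 11.3, 8.57 and 7.04 TPM in young TOM+ cDC2, 13.4, 10.2 and 7.34 TPM in young TOM- DC2 and 11.6, 11.1 and 13.8 TPM in adult cells. It was lower in young TOM+ cDC2 than in adults by counts (log2FC -0.62, SE 0.18, edgeR padj = 0.0175). The call was lost without young TOM+ replicate 3 (padj 0.066) or adult replicate 3 (0.0629) and with limma on log2(TPM + 1) (log2FC -0.42, padj 0.146). In young TOM- DC2, replicates 1, 2 and 3 held 1177, 120.5 and 52.9 TPM of erythroid markers beside the 13.4, 10.2 and 7.34 TPM of Slc25a37. In young TOM+ cDC2, replicates 1, 2 and 3 held 63.6, 97.1 and 53.2 TPM of the markers beside 11.3, 8.57 and 7.04 TPM of Slc25a37. The markers and Slc25a37 had the same order in young TOM- DC2 but not in young TOM+ cDC2. Adult cells held 1.39 to 13.6 TPM of the markers. The part of erythroid RNA in the Slc25a37 values was not tested. Slc25a28 (mitoferrin 2) had a log2FC of 0.07 (95% interval -0.19 to 0.33), and Slc25a38, the glycine carrier of heme synthesis, had 0.01 (95% interval -0.18 to 0.21).

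Of 3 tested carboxylate carriers, only Slc25a1 passed, as lower, against 19.5% of all genes. Slc25a1 exports citrate, from which the cytosol makes acetyl-CoA for lipids, and it measured 35.3, 37.3 and 39.4 TPM in young TOM+ cDC2 and 41.0, 40.5 and 46.8 TPM in adult cells (log2FC -0.32, SE 0.09, edgeR padj = 0.0143). The call was lost without young TOM+ replicate 1 (padj 0.0622) and with limma on log2(TPM + 1) (log2FC -0.19, padj 0.0838). Slc25a11, of the malate-aspartate shuttle, had a log2FC of -0.20 (SE 0.08, edgeR padj = 0.0668), and the dicarboxylate carrier Slc25a10 had 0.01 (95% interval -0.20 to 0.23).

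Members of unknown substrate and relatives of the uncoupling proteins were mostly low. Slc25a53 measured 2.43, 4.08 and 3.57 TPM in adult cells and was 2.15-fold lower in young TOM+ cDC2 (log2FC -1.11, SE 0.20, edgeR padj = 0.000912). Slc25a35 measured 9.28, 6.74 and 6.73 TPM in young TOM+ cDC2 and 12.5, 9.98 and 12 TPM in adult cells (log2FC -0.72, SE 0.18, edgeR padj = 0.0063). Neither gene overlapped between these groups. Slc25a27 (UCP4) passed on 2, 4 and 2 counts in young TOM+ cDC2 against 9, 9 and 17 in adult cells (edgeR padj = 0.00416), which is too few for a precise fold change. The other members without a known substrate, Slc25a45, Slc25a43 and Slc25a47, did not pass, nor did the UCP5 gene Slc25a14 (log2FC 0.11, SE 0.24) and its relative Slc25a30 (0.23, SE 0.17), and neither did Slc25a46 of the outer membrane, at a log2FC of 0.05 (95% interval -0.14 to 0.24).

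The third comparison set young TOM- DC2 against adult TOM+ cDC2, which differ in both age and label. It uses the same adult libraries as the second, so the values are given side by side. At padj under 0.05, 10 members (23.8%) were higher and 6 (14.3%) lower in young TOM- DC2, against 19.4% and 16.9% of all genes. With the log2FC beyond 1 as well there were 3 members (7.14%), against 11.3% of all genes. The groups did not overlap for 21 members (50.0%), against 47.6% of all genes. The median log2FC was 0.08 over members and 0.07 over all genes, and limma on log2(TPM + 1) called 15 members higher and 2 lower. The median shift of the TPM scale was 0.155 here.

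The 3 members past both thresholds were Slc25a24, Slc25a15 and Slc25a33. Slc25a24 was 2.22-fold higher in young TOM- DC2 (log2FC 1.15, SE 0.16, edgeR padj = 0.000149), where the value in young TOM+ cDC2 was 1.77. Slc25a15 measured 9.43, 6.66 and 7.22 TPM in young TOM- DC2, all above the adult libraries (log2FC 1.01, SE 0.13, edgeR padj = 0.000109), where the value in young TOM+ cDC2 was 1.10. Slc25a33 measured 73.5, 90.8 and 104 TPM, all below the adult libraries, and was 2.73-fold lower (log2FC -1.45, SE 0.18, edgeR padj = 7.56e-05), where the value in young TOM+ cDC2 was -1.57.

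The ADP/ATP carriers were also higher in young TOM- DC2, by a log2FC of 0.41 (SE 0.07) for Slc25a4 and 0.32 (SE 0.08) for Slc25a5. Slc25a51 (0.51), Slc25a16 (0.41), Slc25a17 (0.36), Slc25a44 (0.48) and Slc25a39 (0.26) passed with the log2FC given, and so did Slc25a30, at 6.22, 5.90 and 7.10 TPM against 3.81, 4.23 and 3.64 TPM in adult cells (0.58, SE 0.17). Among those lower in young TOM- DC2 were Slc25a3 (-0.41), Slc25a29 (-0.72), Slc25a1 (-0.29) and Slc25a23 (-0.92). Slc25a3 did not pass with limma on log2(TPM + 1) (log2FC -0.225, padj 0.0617), and neither did Slc25a29 (padj 0.0528), Slc25a1 (0.259) and Slc25a23 (0.0572). Slc25a39 did not pass with RSEM expected counts (padj 0.0634) or in a fit of these groups alone (0.0691).

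Several of these calls were close to the threshold and were lost when any of several libraries was left out, with the direction kept. For Slc25a23 the padj was 0.057 to 0.07 without young TOM- replicate 2 or 3 or without adult replicate 1 or 2, with a log2FC of -0.774 to -0.848. For Slc25a29 it was 0.0511 to 0.0816 without young TOM- replicate 2 or 3 or adult replicate 1 or 3, with a log2FC of -0.541 to -0.749. For Slc25a1 it was 0.0549 to 0.0763 without young TOM- replicate 1 or 2 or adult replicate 1 or 3, with a log2FC of -0.255 to -0.301. For Slc25a30 it was 0.0865 without young TOM- replicate 3 and 0.0597 without adult replicate 3, at log2FCs of 0.472 and 0.505. For Slc25a44 it was 0.136 without young TOM- replicate 3, 0.0888 without adult replicate 1 and 0.0514 without adult replicate 2, with a log2FC of 0.31 to 0.503. For Slc25a39 it was 0.0564 to 0.111 without young TOM+ replicate 3, young TOM- replicate 1 or 3 or adult replicate 1, with a log2FC of 0.199 to 0.249. The number of lower members was 3 without young TOM- replicate 2 or without adult replicate 1.

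The calls that were made in 1 age comparison and missed in the other were not shown to differ between young groups, since none of these members passed in the comparison of TOM+ with TOM- cells. Slc25a53 had a log2FC of -1.11 in TOM+ cDC2 and -0.37 in TOM- DC2 against adults, with a difference of -0.73 (edgeR padj = 0.125). Slc25a29 had -1.25 and -0.72, with a difference of -0.53 (edgeR padj = 0.466). In the TPM of Slc25a29, 1 of 3 TOM- libraries lay within the range of TOM+ cDC2.

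By summed TPM the family was larger in young cells, with sums of 2847 to 2905 for TOM+ cDC2, of 2898 to 2924 for TOM- DC2 and, in adult cells, of 2518 to 2650. Without Slc25a5 the sums were 1787 to 1850 in young TOM+ cDC2, 1839 to 1913 in young TOM- DC2 and 1742 to 1915 in adult cells, and the groups overlapped. The mean in young TOM+ cDC2 was then 1823 against 1821 in adult cells. The median shift of the TPM scale for this comparison was a log2FC of 0.13, as given above. Carriers of adenine nucleotides and phosphate made up 61.1% to 63.0% of it in young TOM+ cDC2, 60.3% to 62.3% in young TOM- DC2 and 54.5% to 58.1% in adult cells. Slc25a5 alone was 36.6% ± 0.5 (SD, n = 3), 35.5% ± 1.0 and 29.0% ± 1.7 of the family. Carriers of cofactors and other nucleotides, among them Slc25a33, made up between 9.58% and 10.7% in young libraries and between 14.3% and 17.0% in adult ones. These shares are descriptions on the TPM scale, with no test.

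The family has members under other symbols. Ucp2, which exports carboxylates from the matrix and is common in leukocytes, measured 448 to 600 TPM in young libraries and 530, 644 and 482 TPM in adult cells, a level second only to Slc25a5, and did not pass in TOM+ cDC2 (log2FC -0.27, SE 0.12, edgeR padj = 0.0946). Mtch1 and Mtch2, outer membrane members that place proteins into that membrane, were both higher in young TOM+ cDC2, against 21.0% of all genes. Mtch1 measured 138, 138 and 137 TPM against 75.6, 77.2 and 74.1 TPM in adult cells (log2FC 0.74, SE 0.08). Mtch2 had a log2FC of 0.51 (SE 0.08).

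The route by which carriers reach the inner membrane was higher in young TOM+ cDC2 in 6 of 12 tested genes, against 21.0% of all genes, and lower in 0. These were Timm22, the channel-forming subunit (log2FC 0.53, SE 0.13), the small chaperones Timm9, Timm8a1 and Timm13, and Tomm22 and Tomm40 of the outer membrane entry (Tomm40 log2FC 0.80, SE 0.10). Timm8a1 passed on 23, 22 and 29 counts in young TOM+ cDC2 against 7, 3 and 5 in adult cells, too few for a precise fold change. The median log2FC of the list was 0.28, beside 0.05 over all genes. In young TOM- DC2, 4 of the 12 were higher than in adult cells, against 19.4% of all genes. Of the outer membrane channels, Vdac2 (log2FC 0.39, SE 0.08) and Vdac3 (0.57, SE 0.11) were higher and Vdac1 did not pass, against the same 21.0%.

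Other inner membrane transporters and the partners of single carriers varied, and their counts in young TOM+ cDC2 stand against 21.0% higher and 19.5% lower among all genes. Of 11 inner membrane transporters outside the family, the serine carrier Sfxn1 was higher (log2FC 1.11, SE 0.09), and Sfxn2, Sfxn4, Mcu and Letm1 were lower. Of 4 carnitine partners of Slc25a20, 3 were higher, namely Cpt1a, which makes the acylcarnitine (log2FC 0.81, SE 0.16), the carnitine acetyltransferase Crat (1.10, SE 0.14) and the plasma membrane carnitine importer Slc22a5 (0.56, SE 0.12). Of 4 malate-aspartate shuttle enzymes only Got2 passed (0.26, SE 0.08). Of 9 folate and glycine enzymes, 4 were higher, with Shmt1 at 1.67 (SE 0.13), Mthfd1l at 1.21 (SE 0.11), Shmt2 at 0.88 (SE 0.10) and Mthfd1. In the comparison of young TOM+ with TOM- cells, 0 genes of these lists passed. Of the proliferation list, 15 of 16 genes were higher in young TOM+ cDC2, against 21.0% of all genes, with a median log2FC of 1.24.

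Promoter windows were found for 36 of the 47 members. The letters CACGTG occurred in the 250 bases before a start in 7 members (19.4%), namely Slc25a1, Slc25a13, Slc25a14, Slc25a15, Slc25a31, Slc25a33 and Slc25a36, and in 6.86% of 27025 genes with a window. Of the 7, 1 was higher, 2 were lower, 3 did not pass and 1 was not tested in the comparison of young with adult TOM+ cDC2. The consensus palindrome of nuclear respiratory factor 1 occurred in 0 members and in 0.877% of genes. The window of Slc25a24, shown because this gene had the largest rise among members tested in young TOM+ cDC2 against adults, is chr3:109122899-109123148 on the plus strand of GRCm38.p6, held neither motif and was 72.8% G or C.
Slc25a24: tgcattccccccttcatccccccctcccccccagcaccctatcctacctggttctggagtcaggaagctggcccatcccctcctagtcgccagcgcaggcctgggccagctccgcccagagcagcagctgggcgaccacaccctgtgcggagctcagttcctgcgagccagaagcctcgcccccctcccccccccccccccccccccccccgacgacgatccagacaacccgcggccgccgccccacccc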

How the data were processed

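RNA was extracted with PicoPure, copied with SMART-seq v4 chemistry and sequenced as single-end reads. The authors aligned reads to mm10 with STAR and quantified RefSeq transcripts with RSEM (versions not given in the sources used here). For every gene the authors deposited raw read counts from STAR, of which the unstranded column was used. The deposited RSEM files hold expected counts, which were rounded to whole numbers where tested, and TPM, which the authors scaled to each library's total and which were used for levels and ratios. The deposited FPKM values were not used. STAR counts only reads with a single best place, so members with near-identical copies are undercounted.

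Genes with a mean count of at least 1 were tested in R 4.3.3 with the quasi-likelihood test of edgeR 4.0.16, TMM scaling, all 9 libraries in 3 groups and Benjamini-Hochberg adjustment over 14452 genes, at an adjusted p under 0.05 and, counted apart, a log2FC beyond 1. SE was the log2FC over the square root of F. DESeq2 1.42.0, limma 3.58.1, other filters, scalings and counts, and leaving out each library were alternatives. The script was tested on simulated data. Replicates were numbered in accession order, and nothing in the labels says that adult replicates came from separate animals, so p-values measure the spread between these samples. The deposited names carry numbers that both young groups share, and adult replicates 1 and 2 carry those of young replicates 2 and 3. Deviations from group means of same-numbered young TOM+ and TOM- libraries correlated at 0.50, 0.18 and 0.33. Those of different numbers correlated at -0.41 to 0.19, which overlaps the same-numbered values. Deviations cancel out within a group, so positive values force negative ones elsewhere. The numbers were taken to pair the young libraries, as a hint from the data, in replicate blocks only. The main test was unpaired. Deviations of same-numbered young and adult libraries correlated at -0.002 to 0.041, so adult libraries were not taken as paired. No libraries were copies: chi-square per gene between replicates was at least 9.18. Multimapping reads were 12.7% to 13.4% in young and 10.4% to 10.8% in adult libraries. Reads assigned to no gene feature were 8.84% to 12.8% in young and 15.2% to 17.1% in adult libraries. Counting was without strand. Positions and promoters are from RefSeq (GRCm38.p6), with 36 of 47 members matched to a promoter. Named were members past both thresholds, the leading calls and levels, and a list of carriers, to which Slc25a members in the text were added to account for the family; transport partners were named from lists. The members and lists were chosen with earlier results of these data known. Results of 1 member and of a list of heme and iron-sulfur genes are not reported here, although the member is in the counts.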

Additional observations from a re-analysis of the deposited data

How the results depend on the processing

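In the comparison of young TOM+ with TOM- cells, the count of higher members was 0 in edgeR and 1 with DESeq2, with no filter on low counts and with the replicate block, and ran from 0 to 1 when each library was left out; the member was Slc25a24 each time. This replicate block paired young libraries only. A block over young and adult libraries, chosen after seeing the data, which leaves the adult library of unshared number out of the contrast, gave 13 higher and 10 lower members in young TOM+ cDC2 and 12 and 8 in young TOM- DC2, where Slc25a1 did not pass (padj 0.0606). In young against adult TOM+ cDC2, members past both thresholds fell from 6 to 3 with limma on log2(TPM + 1), a scale that shrinks fold changes of low genes. For young TOM- DC2 against adults, the count of lower members was 6, and 2 with limma on log2(TPM + 1) or log2(TPM + 0.1), and ran from 3 to 7 when each library was left out. The other counts stayed within 1.5 times. No member called in an age comparison reversed its direction there under any alternative run, and neither did Slc25a24 between the young groups. Other members were not checked for a reversal. Over called members in TOM+ cDC2, 172 of 180 results kept their call under other settings and 165 of 180 when a library was left out, and for TOM- DC2 these were 133 of 144 and 123 of 144. Members under about 20 counts per library were too shallow for a precise difference.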
